A study of Mus musculus with 2 samples.

Results

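Forkhead genes encode transcription factors that share a winged helix DNA-binding fold, the forkhead domain, and are named Fox plus a letter for the subfamily and a number for the member. They were taken as all gene spots whose current symbol is Fox followed by a letter and a number, after old names and accessions had been updated. Each array carried 60 such spots, 1 per probe, for 42 genes, 41 of them coding and 1, Foxd2os, a long non-coding RNA that neighbours Foxd2. Of the 42 genes, 37 could be compared, out of 22801 genes compared in all. The rule used names alone and no measured value, though it was set with earlier results of these data known.

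The RNA came from the aorta of apoE-/- mice at 16 weeks of age. Loss of apolipoprotein E raises blood cholesterol and leads to atherosclerosis. Both groups carried that genotype, and there was no wild-type group. The arch segment, labelled as atherosclerosis-prone, ran from the aortic root through the arch to the proximal 2 mm of thoracic aorta, and the thoracic segment, labelled as resistant, was the next 6 mm. Every aorta had been perfused with the detergent Triton X-100 to take off the endothelium, since smooth muscle was the tissue wanted. RNA of 6 mice (3 males and 3 females) was pooled per segment, and the same 2 pools were hybridised on 2 two-colour Agilent arrays, with the thoracic pool in Cy5 on array 1 and the arch pool in Cy5 on array 2. There is 1 pool per segment, so the arrays count as 1 replicate, no p-value is given, and errors after ± are SDs of the 2 arrays (technical, n = 2 arrays). No spread between mice was measured.

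Forkhead factors mostly bind DNA as single proteins and act in the making of organs, in metabolism, in the cell cycle and in immunity. FoxC1 and FoxC2 act in the embryonic aortic arch, the outflow tract and lymphatic valves, FoxF factors act in mesenchyme that receives Hedgehog signals, and FoxO factors are kept out of the nucleus by AKT when insulin or growth factor signals are high. The comparison of arch with thoracic aorta asks, for this family, which members differ in RNA between the prone and the resistant segment.

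The forkhead genes differed little between the segments, apart from 3. Foxd1, a factor of kidney stroma and retina development, was 1.61-fold higher in the thoracic pool (log2 ratio of arch over thoracic -0.69 ± 0.09), and Foxf2, a factor of palate, gut and pericyte development, was 1.54-fold higher there (-0.63 ± 0.04). Foxo6, a FoxO factor known best from brain, was 1.59-fold higher in the arch pool (0.67 ± 0.03). These 3 of 37 (8.11%) passed the 1.5-fold limit, meaning a 1.5-fold mean ratio and 1.2-fold in that direction on both arrays, against 424 of all 22801 genes (1.86%). In the arch direction 1 forkhead gene passed, against 1.4% of all genes, and in the thoracic direction 2 passed, against 0.456% of all genes. None of the 37 passed the 2-fold limit, meaning a 2-fold mean ratio and 1.5-fold in that direction on both arrays, which 0.618% of all genes passed.

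The promoters of Foxd1 and Foxf2 are shown because these genes are the pair that was higher in the thoracic pool. Each line gives the 250 bases before the gene's start from RefSeq (assembly GRCm38.p6, 5′ to 3′ on the plus strand), with GC boxes (GGGCGG or its complement) and CCAAT boxes on either strand in capitals. The Foxd1 window is chr13:98353995-98354244 and the Foxf2 window is chr13:31625566-31625815.
Foxd1: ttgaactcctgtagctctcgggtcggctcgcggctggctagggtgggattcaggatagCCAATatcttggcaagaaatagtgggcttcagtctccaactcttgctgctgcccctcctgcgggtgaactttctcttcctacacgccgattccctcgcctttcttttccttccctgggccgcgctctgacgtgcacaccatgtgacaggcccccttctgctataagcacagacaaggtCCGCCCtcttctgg
Foxf2: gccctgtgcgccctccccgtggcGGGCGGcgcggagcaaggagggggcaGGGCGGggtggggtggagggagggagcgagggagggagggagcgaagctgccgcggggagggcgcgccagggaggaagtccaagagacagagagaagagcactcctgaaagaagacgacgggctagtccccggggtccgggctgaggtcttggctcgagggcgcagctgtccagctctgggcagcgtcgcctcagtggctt
The Foxd1 window held 1 GC box and 1 CCAAT box, and the Foxf2 window held 2 GC boxes. No marked box overlapped another. Neither held the letters TATAAA or the forkhead core TGTTTA, both searched on both strands. Of all 32851 promoter windows of that length, 32.7% held a GC box, 33.8% a CCAAT box, 12.4% TATAAA and 12.0% TGTTTA. Of the 35 windows of forkhead genes (30 genes), 24 held a GC box, 14 a CCAAT box, 3 TATAAA and 5 TGTTTA. The Foxd1 window was 57.2% G or C with 12 CpG pairs, and the Foxf2 window was 71.6% G or C with 21, against medians of 52.4% and 6 over all windows. Such matches describe the letters and say nothing of binding in these tissues.

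**Figure D1:**
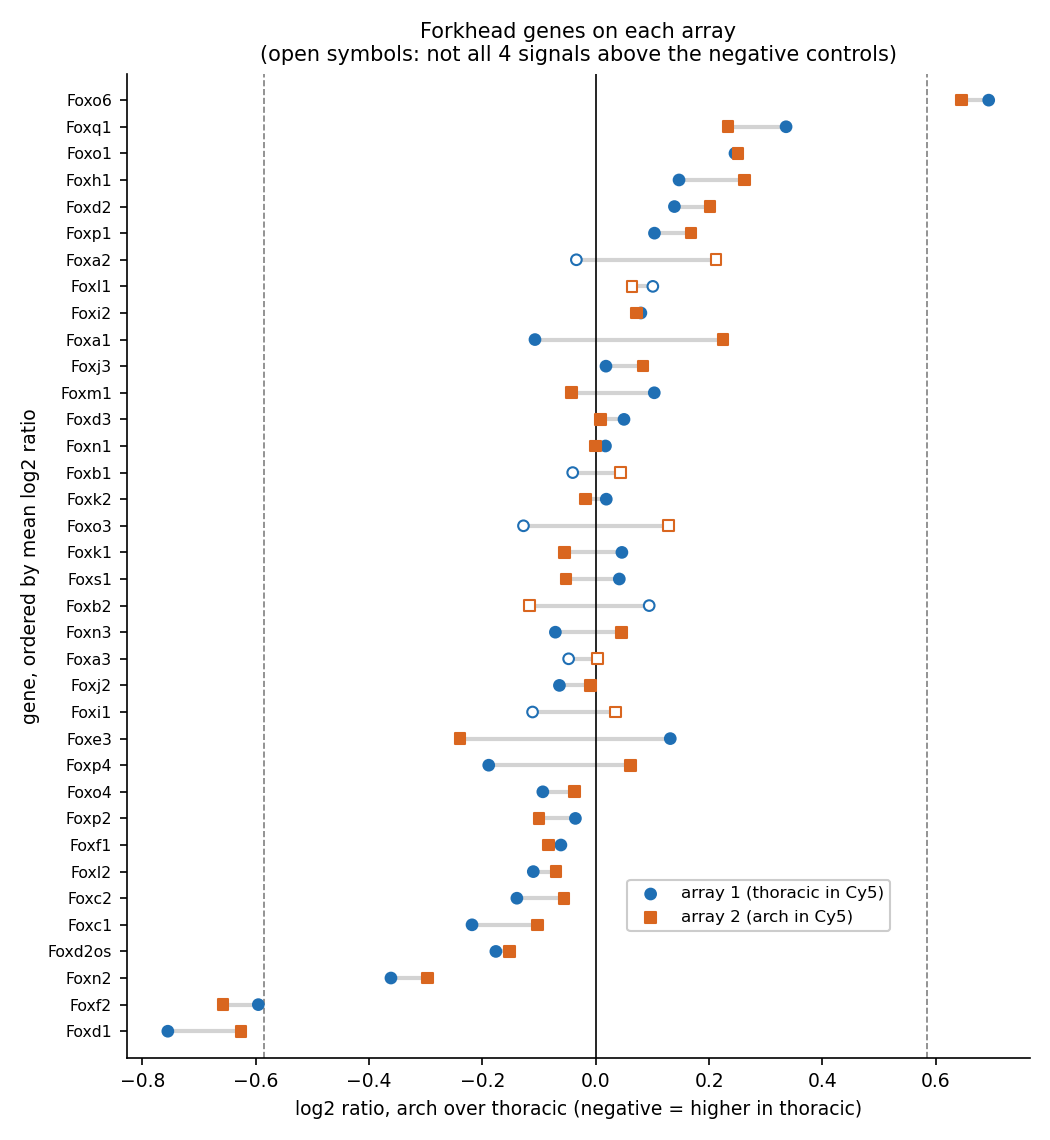
Log2 ratio of arch over thoracic (x axis) for 36 of the 37 forkhead genes compared (y axis), on array 1 (circles) and array 2 (squares), with dashed lines at 1.5-fold. Foxd1 and Foxf2 lie beyond the line on the thoracic side and Foxo6 on the arch side on both arrays, while 25 genes have a mean within 0.1 of 0.

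Signals are given below as normalized values in arbitrary units that include the offset of 50 used in background correction, for the arch and the thoracic pool on array 1 and then on array 2. They rank no gene against another, since probes differ in how strongly they bind. For some genes both signals of 1 pool are said to lie above both of the other. The share of all genes with such a separation was not counted, so it sets no gene apart. The distance from background differed among the members. In 29 of the 37 genes (78.4%) the raw signal was above the 99th percentile of the 314 negative control spots in all 4 measurements, close to the 79.0% of all genes compared. The other 8 genes, among them Foxa2, Foxa3, Foxb1, Foxb2, Foxi1, Foxl1 and Foxo3, had at least 1 measurement at the level of these controls. The log2 ratios of those named here lay between -0.04 and 0.09.

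Foxd1 gave signals of 277 in the arch and 467 in the thoracic pool on array 1, and 296 and 457 on array 2. Both thoracic signals lay above both arch signals. A further Foxd1 probe gave -0.73 ± 0.09, so that both probes of the gene passed the 1.5-fold limit. In bulk RNA of this kind, fewer cells of a type and less RNA per cell cannot be told apart. Foxd2, another factor of the FoxD subfamily, stood at 0.17 ± 0.04 on the arch side. Foxd3, a factor of the neural crest, stood at 0.03 ± 0.03. Foxd2os stood on the thoracic side, with signals of 720 in the arch and 814 in the thoracic pool on array 1 and 755 and 839 on array 2. Its mean log2 ratio was -0.16 ± 0.02, and its further probe gave -0.32. Foxd2 and Foxd2os, which have no coding gene between them in RefSeq, thus had values of opposite sign, neither past 1.5-fold. Foxd2 was dim, at 96.0 in the arch and 87.2 in the thoracic pool on array 1, and 108 and 94.3 on array 2. Its ratio ran from 0.13 to 0.40 with the processing.

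Foxf2 was dim. Its signals were 85.3 in the arch and 129 in the thoracic pool on array 1, and 74.1 and 117 on array 2, with both thoracic signals above both arch signals. Before background correction its arch signals were 121.9 and 100.0, against highest negative controls of 122.7 and 100.0 in the same channels, while the thoracic signals of 154.3 and 153.6 lay above theirs (93.6 and 123.7). The size of the Foxf2 difference moved with the treatment of background. It was 2.79-fold in the scanner software's deposited ratio (log2 ratio -1.48 ± 0.12), to which no offset of 50 was added. Without background subtraction it was -0.46 on the log2 scale and no longer passed 1.5-fold. Foxf1, the paralogue that acts in lung and gut mesenchyme, stood at -0.07 ± 0.02.

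**Figure D2:**
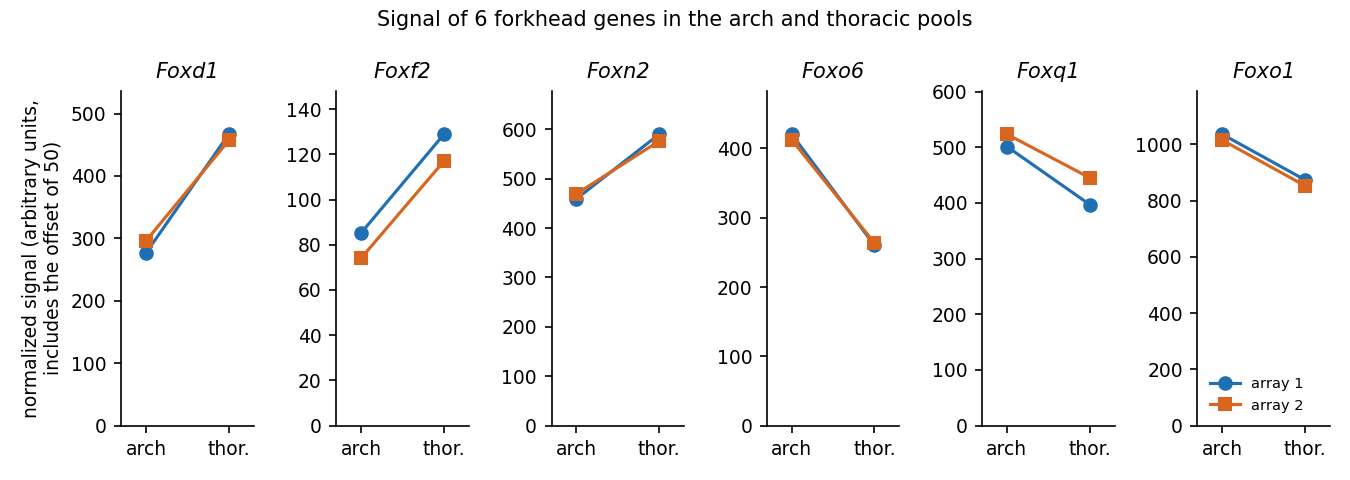
Normalized signal (y axis, arbitrary units, each panel from 0 with its own scale) in the arch and thoracic pools (x axis) for 6 forkhead genes, with 1 line per array. On both arrays Foxd1, Foxf2 and Foxn2 slope up to the thoracic pool and Foxo6, Foxq1 and Foxo1 slope down to it, Foxf2 at signals of 74.1 to 129.

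The 2 FoxC genes both stood slightly on the thoracic side. Foxc1, needed for the arch arteries and outflow tract, gave 951 in the arch and 1107 in the thoracic pool on array 1, and 974 and 1045 on array 2. Its log2 ratio was -0.16 ± 0.08. Foxc2, needed also for lymphatic valves, gave 770 and 848 on array 1 and 774 and 804 on array 2, a ratio of -0.10 ± 0.06. The differences were small, at 1.12-fold for Foxc1 and 1.07-fold for Foxc2. In RefSeq, Foxq1, Foxf2 and Foxc1 lie near each other on 1 chromosome, and Foxf1, Foxc2 and Foxl1 on another. No other coding gene lies within the first trio. In the second, 1 lies between Foxf1 and Foxc2 and none between Foxc2 and Foxl1. Members of the first trio had no common sign. Foxq1, a factor of hair follicle differentiation, gave 501 in the arch and 397 in the thoracic pool on array 1, and 523 and 445 on array 2. Its ratio was 0.28 ± 0.07 on the arch side, at 1.22-fold, while Foxf2 and Foxc1 stood on the thoracic side. In the second trio Foxl1, a factor of gut mesenchyme near the level of the negative controls, stood at 0.08 ± 0.03. Foxs1, a factor of neural crest derivatives, stood at -0.01 ± 0.07 and Foxl2, a factor of ovarian granulosa cells, at -0.09 ± 0.03.

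The FoxO subfamily held the member with the highest ratio of arch over thoracic among the 37. Foxo6 gave signals of 420 in the arch and 260.0 in the thoracic pool on array 1, and 412 and 264 on array 2. Both arch signals lay well above both thoracic signals, and the deposited ratio put the difference at 1.74-fold. Foxo6 had 1 probe, so no second sequence of the gene was read. In RefSeq it overlaps Gm52678, and which transcript the probe read was not tested. Foxo1, a mediator of insulin and growth factor signals, gave 1036 and 874 on array 1 and 1016 and 853 on array 2. Its ratio was 0.25 with an SD of 0.004, which is 1.19-fold and under the 1.5-fold limit, and its further probe gave 0.12 ± 0.12. Foxo3 had ratios of -0.13 and 0.13 on the 2 arrays, and Foxo4 stood at -0.07 ± 0.04. The 4 FoxO genes thus ranged from -0.07 to 0.67, and no common shift of the subfamily was seen.

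Of the remaining members, Foxn2 came closest to the limit. Foxn2, a little studied factor, gave 459 in the arch and 589.9 in the thoracic pool on array 1, and 469 and 576 on array 2. Both thoracic signals lay above both arch signals, and the ratio was -0.33 ± 0.05. Its 2 further probes, each above the negative controls in only 2 of 4 measurements, stood at -0.07 and 0.03. The probe that stands for Foxn2 is named 3230402J05Rik on the array and was matched to Foxn2 by synonym. With Foxn2, 4 of the 37 genes (10.8%) passed 1.2-fold the same way on each array, against 7.75% of all genes. With names as in the scanner files, Foxn2 stood at -0.07 and 3 of 32 forkhead genes passed. When the same limits were applied to the dyes in place of the segments, 0 forkhead genes and 64 of all genes passed at 1.2-fold, and 0 of all genes at 1.5-fold. That 0 became 14 of all genes without loess, 112 with an offset of 0 and 118 in the scanner software's ratio, with 0 forkhead genes in each. Foxn3, which acts in the cell cycle checkpoint, gave 1510.4 and 1587 on array 1 and 1582 and 1533 on array 2. Its segments overlapped, and its 4 probes spread from -0.12 to 0.17. Foxn1, the factor of thymus epithelium, stood at 0.01 ± 0.01.

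Foxh1, a partner of SMAD proteins in Nodal signalling, gave 3818 in the arch and 3448 in the thoracic pool on array 1, and 4329 and 3609 on array 2. Its ratio was 0.20 ± 0.08. The gene overlaps Kifc2 in RefSeq, and the Kifc2 probe gave -0.07 ± 0.13. Foxp2, studied best for vocal learning, gave 1014 and 1040 on array 1 and 993 and 1065 on array 2, at -0.07 ± 0.05. Foxp1, which acts in heart, lung and lymphocyte development, stood at 0.14 ± 0.05 and Foxp4 at -0.06 ± 0.18. The 3 FoxP genes compared did not share a sign. Foxj3 gave 923 in the arch and 911 in the thoracic pool on array 1 and 909 and 858 on array 2, and Foxj2 gave 505 and 528 on array 1 and 525 and 528 on array 2. Their ratios were 0.05 ± 0.05 and -0.04 ± 0.04.

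Foxk1, known from muscle progenitors, and Foxk2 were even between the segments on the probes that stand for them, at -0.00 ± 0.07 for Foxk1 and 0.00 ± 0.03 for Foxk2. A dimmer Foxk1 probe gave -0.28 ± 0.06. Foxm1, which drives the genes of mitosis, stood at 0.03 ± 0.10. Factors of endoderm, eye, ear and kidney made up most of the rest. The FoxA genes, which open chromatin in liver and gut, lay between -0.02 and 0.09, and the FoxB genes between -0.01 and 0.00. Foxi1 stood at -0.04 ± 0.10, Foxi2 at 0.08 ± 0.01, and Foxe3, a lens factor with the widest spread between arrays of the 37, at -0.05 ± 0.26. None of these was past 1.2-fold.

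The 5 genes on the array that could not be compared were Foxd4, Foxe1, Foxj1, Foxn4 and Foxp3. Their probes were not well above background in any 1 pool on both arrays, and in all 5 none of the 4 signals was above the 99th percentile of the negative controls. Foxe1 is the thyroid factor, Foxj1 the factor of motile cilia, Foxn4 a factor of retinal and spinal neurons and Foxp3 the factor of regulatory T cells. Their RNA was not detectable on these arrays, which does not show that it was absent.

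As a family, the forkhead genes did not lean to either segment. Of the 37, 18 had a mean ratio above 0 and 19 below, the median was -0.00 against -0.01 over all genes, and 22 (59.5%) had the same sign on both arrays against 67.6% of all genes. The median size of the log2 ratio was 0.07 against 0.08 over all genes, and among genes with all 4 signals above the negative controls it was 0.07 against 0.09. In all, 32 of the 37 lay within 1.2-fold and 34 within 1.5-fold. Across the 37 genes the ratios of the 2 arrays had a Pearson correlation of 0.84, against 0.81 across all genes. This is a description, since both arrays hold the same pools and genes are not replicates. In the scanner software's deposited ratio the same 3 genes passed 1.5-fold, against 4.01% of all genes.

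**Figure D3:**
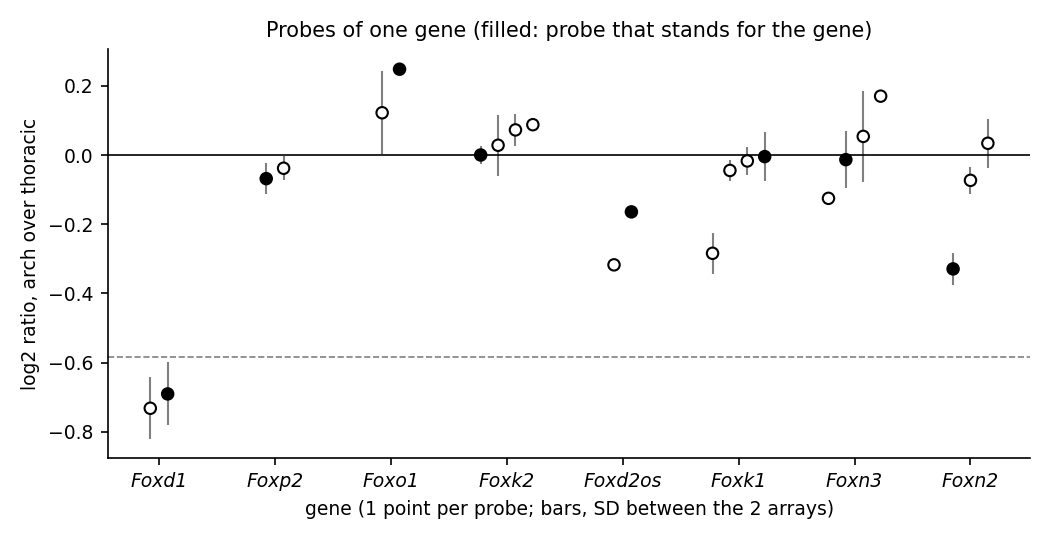
Log2 ratio of arch over thoracic (y axis, mean of the 2 arrays with bars for the SD between them) for every detected probe of the 8 forkhead genes that had more than 1, with the probe that stands for the gene filled. Both Foxd1 probes lie beyond 1.5-fold (dashed line), while the 3 Foxn2 probes spread from -0.33 to 0.03.

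Genes that regulate or follow the FoxO factors were mostly even, with a few higher in the arch pool. As the share to set beside these lists, 1.4% of all genes passed 1.5-fold in the arch direction and 0.456% in the thoracic direction. Of 21 regulators compared, 1 passed 1.5-fold, and it was higher in the arch: Sgk1, a kinase that phosphorylates FoxO proteins (0.69 ± 0.08). Ywhaz, an adaptor protein of the kind that holds phosphorylated FoxO in the cytoplasm, stood at 0.30 ± 0.09, and its further probe gave -0.12. The list's median was 0.04. Of 31 FoxO target genes compared, 3 passed, all 3 in the arch direction, with a list median of 0.11. They were Il7r, the interleukin 7 receptor (1.12 ± 0.15, but 0.16 on a further probe), Pdk4, a kinase that limits glucose oxidation (0.88 ± 0.08), and Gadd45a, a stress response gene (0.59 ± 0.08). Gabarapl1, an autophagy gene, stood just short at 0.58 ± 0.04, with a further probe at 0.33.

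Genes of the Hedgehog pathway, which acts upstream of FoxF and Foxl1, differed both ways. Of 14 compared, 2 were higher in the arch past 1.5-fold (1.4% of all genes) and 1 in the thoracic pool (0.456% of all genes). The median was 0.13. Hhip, a decoy that binds Hedgehog ligands, was 2.1-fold higher in the thoracic pool (-1.07 ± 0.03, and -0.42 on a further probe). Ptch1, the Hedgehog receptor, stood at 0.73 ± 0.06 and the co-receptor Boc at 0.62 ± 0.04, but further probes gave 0.01 and -0.13. Of 14 FoxF and FoxC partners in smooth muscle, 1 passed, Wwtr1, a coactivator of the Hippo pathway (0.63 ± 0.05, and 0.41 on a further probe), and the median was 0.11. Smad3 stood at 0.41 ± 0.11, Tgfb1 at 0.37 ± 0.06 and the integrin Itga8 at -0.37 ± 0.08, with further probes at -0.32 and -0.09.

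Of 24 arterial and lymphatic genes linked to FoxC1 and FoxC2, 2 were higher in the arch past 1.5-fold (1.4% of all genes). In the thoracic pool 1 was higher (0.456% of all genes), and the median was 0.04. Kdr, the endothelial receptor for vascular endothelial growth factor, was 2.36-fold higher in the arch (1.24 ± 0.04), and Hey1, a Notch target, stood at 0.63 ± 0.08. Tbx1, a factor of arch artery formation, was higher in the thoracic pool (-0.66 ± 0.13). Lyve1, a lymphatic marker, stood just short of the limit at -0.58, with a further probe at -0.24. The endothelial marker list shares Kdr, Tek and Tie1 with the genes above, so it is no separate measure for Kdr. Of its genes, 4 of 14, Kdr among them, were higher in the arch past 1.5-fold, and all 14 were above 0. Its summed signals, Kdr included, were 4362 to 4399 in the arch and 3027 to 3063 in the thoracic pool. The part of endothelial cells in the values of Kdr and Hey1 was not tested.

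The other partner lists held no gene past 1.5-fold in either direction, a limit that 1.86% of all genes passed. These were 23 FoxM1 target genes of mitosis (median 0.03), 18 motile cilia genes of FoxJ1 (-0.06), 11 FoxP corepressors (0.12) and 10 partners of FoxK and FoxN (-0.01). The largest in size of the mitosis list was Cks1b at -0.30 ± 0.10, with the proliferation marker Mki67 at 0.27 ± 0.09. Those of the cilia list were Tppp3 at -0.34 ± 0.19 and Rsph9 at -0.26 ± 0.05. Gatad2a of the FoxP list stood at 0.35 ± 0.13, with a further probe at 0.003, and Sin3b of the FoxK list at -0.20 ± 0.15.

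The pools differed in markers of other cell types, most of the genes past 1.5-fold being higher in the arch. At that limit 1.4% of all genes passed in the arch direction and 0.456% in the thoracic direction. Past 1.5-fold in the arch direction were 9 of 10 mesothelium and epicardium genes (median 1.37, with Upk3b at 1.79 ± 0.04), 5 of 10 heart muscle genes (median 0.61, with Myl7 at 3.65 ± 0.12), 4 of 12 macrophage genes (median 0.31, with Cd5l at 4.09 ± 0.13) and 2 of 8 adventitial fibroblast genes (median 0.42). Summed signals of the mesothelium list were 8351 to 8848 in the arch and 3509.5 to 3577 in the thoracic pool. Those of the heart muscle list were 28206 to 30942 and 21129 to 23058, and those of the macrophage list 102437 to 133059 and 70082 to 81540.2, which includes 1 saturated probe, that of Lyz2. Fat genes passed at 2 of 10 (median 0.06), skeletal muscle at 1 of 7 and thymus epithelium at 1 of 5, all in the arch direction. The skeletal muscle gene was Myh4, in a list with a median of -0.09. The thymus gene was Krt8, in a list with a median of -0.02 whose other genes lay between -0.05 and 0.06. By contrast 0 of 8 T cell, 0 of 8 nerve, 0 of 7 thyroid, 0 of 5 airway and 0 of 5 lymphatic endothelium genes passed. The summed signals of the last pair were higher in the thoracic pool: 2131 to 2177 in the arch and 2907 to 2947 in the thoracic pool for lymphatic endothelium, and 1092 to 1176 and 1337 to 1385 for airway epithelium, in which 0 of 5 genes had a ratio above 0. The lymphatic list had a median of -0.05, with Lyve1 at -0.58 and its other genes between -0.10 and 0.10. Of the airway genes, 3 of 5 had all 4 signals above the negative controls. The labelled tissue's own markers were present. All 10 smooth muscle genes had all 4 signals above the negative controls, none passed 1.5-fold, and their median was 0.17, with 3 of them on a saturated probe. In the thoracic pool the genes compared in these lists were all well above background, other than in the thyroid list (6 of 7) and the fat list (9 of 10).

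On the thoracic side, where Foxd1 and Foxf2 lie, the pericyte list was the 1 marker list with a gene past 1.5-fold. That gene was Rgs5 (-0.70 ± 0.06, and -0.57 on a further probe), but Abcc9 of the same list was higher in the arch (0.64 ± 0.03), the list's median was -0.03, and its summed signals were 11904 to 12793 in the arch and 13100.0 to 13358 in the thoracic pool. The part of any of these cell types in the values of Foxd1, Foxf2 and Foxo6 was not tested.

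**Figure D4:**
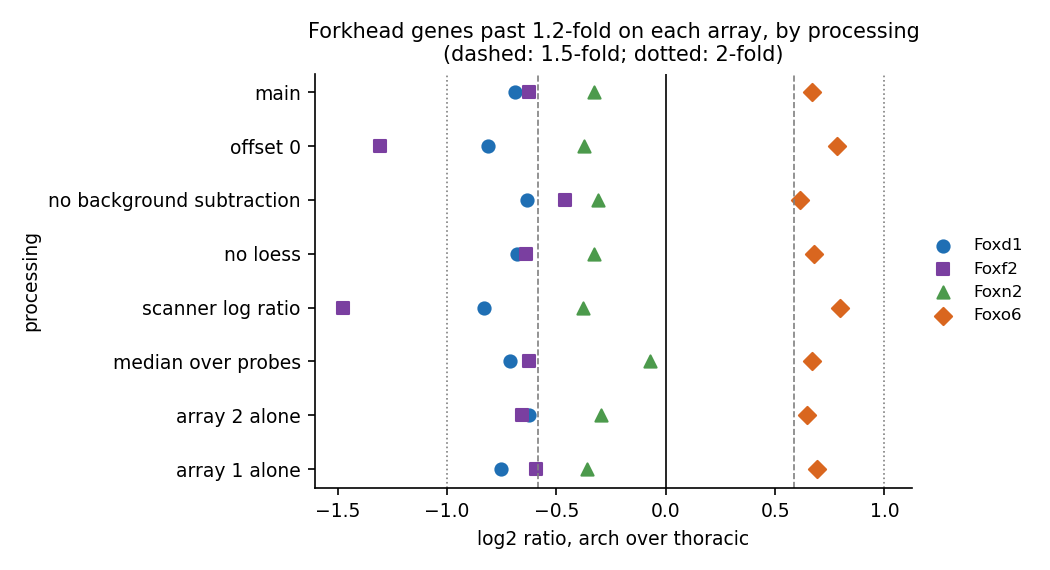
Log2 ratio of arch over thoracic (x axis) of the 4 forkhead genes that passed 1.2-fold on each array, under 8 ways of processing (y axis), with dashed lines at 1.5-fold and dotted lines at 2-fold. Foxd1 and Foxo6 stay between the lines throughout, whereas Foxf2 runs from -1.48 with the scanner log ratio to -0.46 without background subtraction and Foxn2 shrinks to -0.07 as the median over its probes.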

How the data were processed

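The 2 pools of aortic RNA, 1 per segment, were compared on 2 arrays with dyes exchanged, and the arrays were treated as 1 replicate. The deposited scanner tables hold intensity values per spot (mean signal and median local background, not normalized), a log10 ratio of red over green and a p-value per spot, all written by Agilent's Feature Extraction software (8.1.1.1 per the file headers, 9.1.1.1 per the submitters' processing notes). The deposited table of the series holds nearly the same log10 ratios, turned to arch over thoracic (median 0 on each array, correlation of 1.00 with the scanner ratio), with 35 and 38 of 41174 probes differing by over 0.001.

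With limma 3.58.1 in R 4.3.3, background was corrected by normexp (offset 50), loess was run within each array with control spots given weight 0, outlier spots (8 and 5) were left out, and both arrays were averaged. The offset narrows the ratios of dim probes. A gene was represented by its brightest probe well above background in at least 1 pool on both arrays. Symbols were updated through RefSeq (GRCm38.p6) by accession for 21839 of 41534 gene spots, by current symbol for 5403 and by synonym for 4629, and 9663 kept the file's name. Of 47 RefSeq symbols that fit the rule, 5 had no matched spot (Foxi3, Foxr1, Foxr2, Foxl2os and Foxo6os).

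The members and gene lists were chosen with earlier results of these data known. Signals of every pool were printed for genes past 1.2-fold and the 10 brightest others, up to 4 genes were named per pathway list and up to 2 per marker list. Some genes within this rule are not reported here. The steps were tested on simulated data. Alternatives covered background, normalization, filters, probes, arrays, names and the scanner's p-value. The number of arrays limits the precision.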

Additional observations from a re-analysis of the deposited data

How the results depend on the processing

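Foxo6 was the 1 gene called higher in the arch, and Foxd1 was called higher in the thoracic pool, at 1.5-fold under all 11 alternatives that give a ratio and by the scanner's p-value. Foxf2 was lost, leaving 1 gene on the thoracic side, without background subtraction and when the call was a scanner p-value of at most 0.01 on each array (a call that 699 of all 22801 genes passed). At 2-fold the thoracic count rose from 0 to 1 with an offset of 0 and with the scanner log ratio, in both cases through Foxf2. The scanner p-value call, set beside the 2-fold limit, gave 1 gene in the arch and 1 in the thoracic pool, Foxo6 and Foxd1. Over all genes the 1.5-fold count of 424 became 806 with an offset of 0 and 915 with the scanner log ratio. At 1.2-fold the count of 4 forkhead genes ran from 3 to 6. It was 3 with names as in the scanner files and with the median over probes, and in both Foxn2 stood at -0.07. The median over the forkhead genes stayed between -0.03 and 0.00. Across the 11 alternatives that give a ratio, 22 of the 37 genes kept 1 sign. They are the same 22 genes that had the same sign on both arrays, since the alternatives include each array alone. Of the gene values, 363 stayed within 1 SD of the main value and 44 moved further. Much of the 363 was fixed in advance. A single array always lies within 1 SD of the mean of both, and the filters on dim and saturated probes left every forkhead value unchanged. Foxo1, with an SD of 0.004, was among those that moved by this measure, though its ratio ran only from 0.19 to 0.26. In size of the log2 ratio, the dim gene Foxf2 had the widest range (-1.48 to -0.46), which went with the treatment of background. The cause was not tested. No paired analysis was possible because there is 1 pool per segment. Signal over background limits what can be seen: 8 of the 37 genes had a signal at the level of the negative controls.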
